A study of Drosophila melanogaster with 9 samples.

Results

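Aminoacyl-tRNA synthetases attach each amino acid to its transfer RNA. The genes described here are the 30 whose symbol on the array is 1 or 2 amino acid codes followed by RS, for the enzymes of the cytosol (16 genes), or by RS-m, for those of mitochondria (14 genes). They were measured by 32 of 18769 probe sets and are 30 of 11982 named genes. All 30 matched a gene in the RefSeq table of Drosophila melanogaster by its Entrez number. That table holds 33 symbols of this form, and the other 3 were not analysed here.

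RNA came from the indirect flight muscles of adult males aged 1 to 2 days, reared at 25 °C, on 9 Affymetrix Drosophila Genome 2.0 arrays. Act88FKM88 carries a null allele of Act88F, the actin gene of the flight muscle. Mhc7 is a mutant of the myosin heavy chain gene Mhc whose flight muscle lacks that protein. Canton-S is a wild-type laboratory strain. Each genotype had 3 arrays, described in the labels as biological replicates and named here by genotype and number (Mhc7 2). Beyond the allele each mutant is named for, the labels do not state the genetic background or how many animals were pooled for an array. Males of each genotype shared age, rearing temperature and dissection, in which muscle was taken from thoraces dehydrated in cold ethanol.

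Synthetases work in 2 separate sets in a fly cell. The cytosolic set charges the tRNAs that ribosomes use for most proteins, and in mammals several of these enzymes sit with scaffold proteins in a multisynthetase complex. The mitochondrial set is encoded in the nucleus and imported, and it charges the tRNAs with which mitochondria translate the few proteins of their own genome, all of them tied to oxidative phosphorylation. Flight muscle is packed with mitochondria. GluProRS is a single cytosolic protein that charges tRNAs with glutamate and with proline. In the RefSeq table no mitochondrial symbol of this form stands for glutamine, glycine, histidine, lysine or threonine. In humans the glycine and lysine enzymes of both compartments come from 1 gene each, and mitochondrial glutamine tRNA is made by an amidotransferase instead.

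The values are log2 intensities made by RMA, a method that corrects background, normalizes and summarizes the probes of a probe set. They can be compared between arrays for 1 probe set, but not between genes. A gene is said to have risen or fallen where limma's Benjamini-Hochberg adjusted p was under 0.1 with a difference of 2-fold or more, which are the study's own limits. Of all probe sets, 1.81% passed in Act88FKM88 against Canton-S, 2.79% in Mhc7 against Canton-S and 1.79% in Act88FKM88 against Mhc7. Each pair of these comparisons shares the 3 arrays of 1 genotype. Counts at an unadjusted p under 0.05 are given below without a share over all probe sets, which was not counted at that limit. Since the RNA came from whole muscle, fewer cells of a type and less RNA per cell cannot be told apart.

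Act88F, the gene lost in Act88FKM88, had 11.57, 11.79 and 11.03 in Act88FKM88 and 14.10, 14.32 and 14.36 in Canton-S, with a difference of -2.80 ± 0.17 (SE, n = 3 arrays each; limma adjusted p = 8.25e-05). Mhc was not analysed here, so no gene checked the Mhc7 label. Arrays of 1 genotype correlated at 0.978 to 0.988 over all probe sets, and arrays of different genotypes at 0.956 to 0.977. The 8 measured flight muscle markers averaged 11.53 to 12.10 per array in Act88FKM88, 12.19 to 12.35 in Mhc7 and 11.77 to 11.98 in Canton-S. Without Act88F, the other 7 averaged 11.60 to 12.14 in Act88FKM88, 11.91 to 12.08 in Mhc7 and 11.44 to 11.64 in Canton-S. Their differences from Canton-S were 0.14 to 0.60 in Act88FKM88, all positive, and -0.68 to 1.22 in Mhc7, with 6 of 7 positive. In Mhc7, Mf rose by 1.22 (limma adjusted p = 0.0264), while TpnC4 differed by -0.68 (limma adjusted p = 0.0111). The 5 fat body markers averaged 5.91 to 6.36 in Act88FKM88, 5.48 to 7.53 in Mhc7 and 4.92 to 6.82 in Canton-S. The 3 markers of other thoracic muscle averaged 7.60 to 9.79 in Act88FKM88, 6.88 to 7.59 in Mhc7 and 6.63 to 8.73 in Canton-S. Markers of neurons and glia, gut, and testis and accessory gland averaged at most 3.88 on any array. Hemocyte markers averaged 4.62 to 5.13 in Act88FKM88, 4.30 to 4.54 in Mhc7 and 4.61 to 4.84 in Canton-S, and 0 of 5 had a positive difference in Mhc7 against Canton-S (median -0.36). Cuticle markers averaged 3.56 to 4.12 in Act88FKM88, 3.74 to 3.92 in Mhc7 and 4.12 to 4.37 in Canton-S, and 1 of these 5, Cpr76Bd, fell in both mutants, with differences from Canton-S of -2.22 in Act88FKM88 and -2.17 in Mhc7. Tracheal markers averaged 4.72 to 5.01 in Act88FKM88, 4.81 to 5.85 in Mhc7 and 4.96 to 5.57 in Canton-S. The part of these cells in the synthetase differences was not tested. The array medians lay between 3.05 and 3.12, but the 95th percentile was 7.70, 7.96 and 7.57 in Act88FKM88, 7.77, 8.15 and 8.05 in Mhc7, and 7.26, 7.35 and 7.47 in Canton-S. Bright probe sets, meaning the 4693 at or above the 75th percentile of mean level, read higher in the mutants as a whole. Their median difference was 0.17 in Act88FKM88 against Canton-S and 0.22 in Mhc7 against Canton-S, against -0.03 and -0.01 over all probe sets.

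Most of the synthetases were bright in this sense, 22 of 30 genes, with 14 of 16 cytosolic and 8 of 14 mitochondrial. The 8 dimmer ones were CysRS and ValRS, which charge tRNAs with cysteine and valine in the cytosol, and 6 mitochondrial genes (ArgRS-m, AsnRS-m, AspRS-m, GluRS-m, IleRS-m and MetRS-m). Several of those 6 read close to the array median in each genotype. MetRS-m, for example, had 2.90, 3.03 and 3.10 in Act88FKM88, 2.99, 3.38 and 3.20 in Mhc7, and 3.07, 2.99 and 3.02 in Canton-S.

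In Mhc7 muscle 4 synthetase genes rose and none fell. They were GluProRS, ThrRS and TrpRS of the cytosol and SerRS-m of the mitochondria, the enzymes for glutamate and proline, threonine, tryptophan and serine. Their rises were between 2.38-fold and 2.72-fold. In Act88FKM88 muscle none of the 30 passed in either direction, and none passed between the mutants. An F-test across the genotypes, moderated by limma, had an adjusted p under 0.1 for 6 of 16 cytosolic genes (37.5%) and 4 of 14 mitochondrial genes (28.6%), against 8.81% of all probe sets. Those were GlnRS, GluProRS, LysRS, ThrRS, TrpRS and TyrRS, and AsnRS-m, CysRS-m, PheRS-m and ValRS-m. All of these but AsnRS-m were bright, and the share of bright probe sets in the F-test was not counted.

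**Figure D1:**
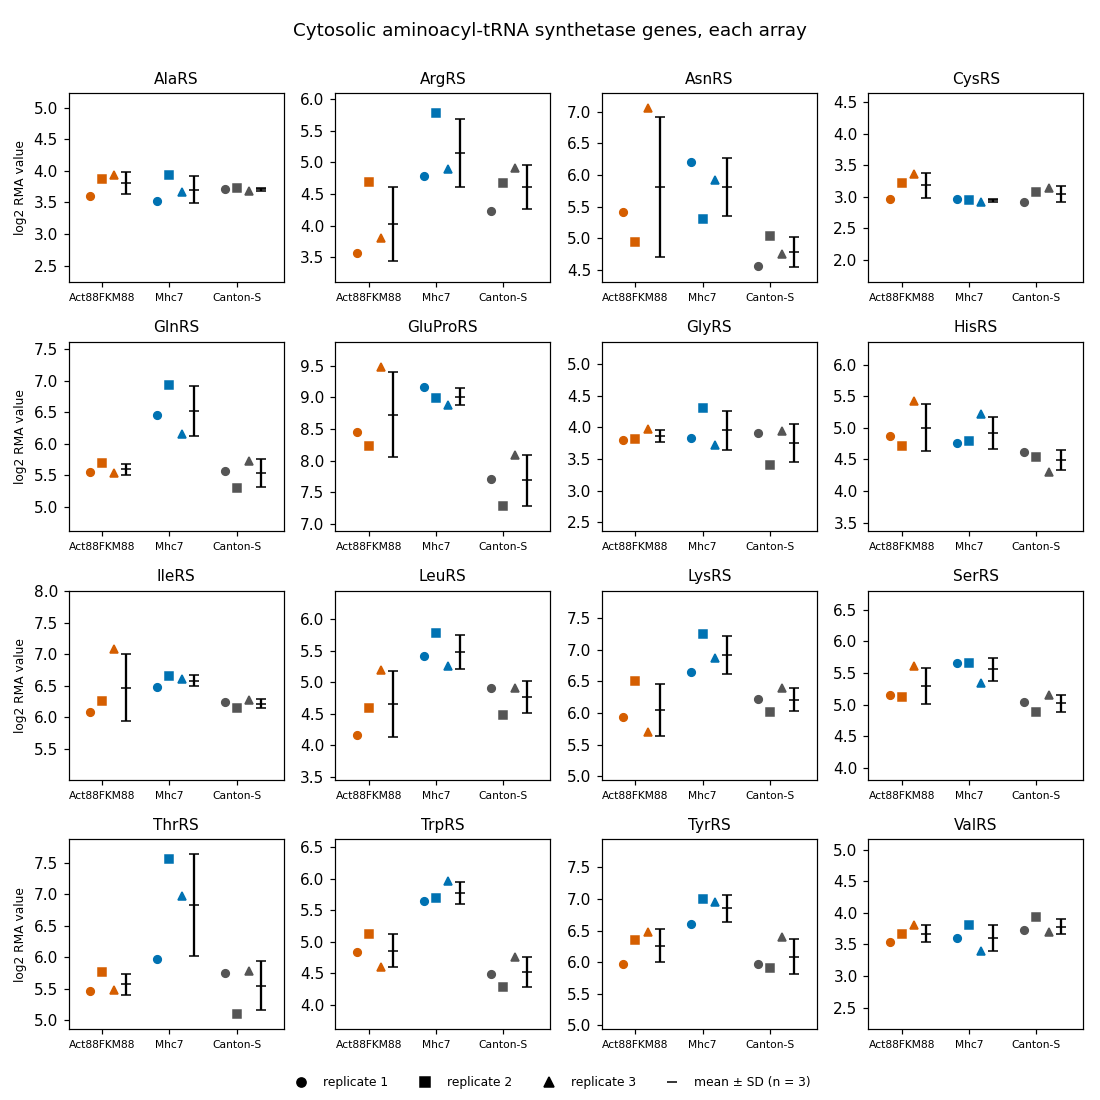
Log2 RMA value of the 16 cytosolic synthetase genes in each array (y axis, 1 panel per gene), with Act88FKM88, Mhc7 and Canton-S side by side; points are arrays, shapes are replicate numbers, and bars are the mean ± SD of 3 arrays. For TrpRS, GlnRS and GluProRS the 3 Mhc7 arrays sit above the 3 Canton-S arrays, while AlaRS and ValRS overlap in all genotypes.

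Mhc7, whose flight muscle lacks myosin heavy chain, was compared with the wild-type strain Canton-S. In this comparison the allele and the genetic background cannot be told apart. The 3 cytosolic genes that rose are 3 of 16, and SerRS-m is 1 of 14 mitochondrial genes, against 2.4% of all probe sets called higher. Among bright probe sets 9.57% were called higher, and all 4 genes were bright, which made them 4 of 22 bright members (18.2%). The difference was positive for 13 of 16 cytosolic genes, with a median of 0.62 (range -0.18 to 1.32). It was positive for 11 of 14 mitochondrial genes, with a median of 0.31 (range -0.26 to 1.44), against 46% positive and a median of -0.01 over all probe sets. Over bright genes alone, the cytosolic median was 0.71 (14 genes) and the mitochondrial median 0.58 (8 genes), against 0.22 for all bright probe sets. The 6 dimmer mitochondrial genes had a median of 0.12.

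TrpRS, which charges tRNA with tryptophan in the cytosol, had 5.65, 5.69 and 5.97 in Mhc7 and 4.49, 4.29 and 4.77 in Canton-S. Every Mhc7 array was above every Canton-S array. The difference was 1.25 ± 0.16 (SE, n = 3 arrays each), 2.38-fold, with an adjusted p of 0.00287. The gene has 2 further probe sets, both dimmer. One differed by 0.71 ± 0.19 (SE, n = 3 each; limma adjusted p = 0.0849), and the other, with 2.87, 2.83 and 2.90 in Mhc7 and 2.76, 2.90 and 2.88 in Canton-S, by 0.02. The mean of the 3 probe sets gave 0.66, under the 2-fold limit.

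GluProRS, which charges 2 kinds of tRNA, had 9.16, 9.00 and 8.88 in Mhc7 and 7.71, 7.28 and 8.09 in Canton-S. The lowest Mhc7 array was above the highest Canton-S array. The difference was 1.32 ± 0.31 (SE, n = 3 each), 2.5-fold, with a limma adjusted p of 0.0455. Repeated quantile normalization of the 9 arrays brought it to 0.63 (adjusted p = 0.492) and cyclic loess to 0.74 (adjusted p = 0.389). The call was lost without Mhc7 1 (adjusted p = 0.116), Mhc7 2 (0.125), Mhc7 3 (0.118), Canton-S 1 (0.131) or Canton-S 2 (0.149), with differences from 1.12 to 1.39 in these fits.

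ThrRS, the threonine enzyme, had 5.97, 7.56 and 6.96 in Mhc7 and 5.76, 5.10 and 5.79 in Canton-S. Mhc7 1 was just above the highest Canton-S array, and Mhc7 2 stood well above both other Mhc7 arrays. The difference was 1.28 ± 0.35 (SE, n = 3 each), 2.43-fold, with a limma adjusted p of 0.0862. Leaving out 1 array kept the call without Act88FKM88 2 or Mhc7 1 and lost it in the other 7 fits, with 0.92 (adjusted p = 0.214) without Mhc7 2, 1.06 (0.244) without Canton-S 2, and adjusted p values of 0.112 to 0.235 without Act88FKM88 1, Act88FKM88 3, Mhc7 3, Canton-S 1 or Canton-S 3. It was 0.93 (adjusted p = 0.124) after repeated quantile normalization.

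SerRS-m, the mitochondrial serine enzyme, had 6.33, 7.25 and 6.38 in Mhc7 and 5.39, 4.73 and 5.51 in Canton-S. The groups did not overlap, and again Mhc7 2 was highest. The difference was 1.44 ± 0.37 (SE, n = 3 each), 2.72-fold, with a limma adjusted p of 0.0675. The call was lost without Act88FKM88 1 (adjusted p = 0.108), Mhc7 2 (0.202), Mhc7 3 (0.132), Canton-S 1 (0.143) or Canton-S 2 (0.202). It was 1.13 (adjusted p = 0.0818) after repeated quantile normalization and 1.09 (adjusted p = 0.102) after cyclic loess.

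A further 7 genes had an adjusted p under 0.1 in Mhc7 against Canton-S with less than a 2-fold difference. They were GlnRS, SerRS and TyrRS of the cytosol, for glutamine, serine and tyrosine, and AsnRS-m, CysRS-m, PheRS-m and TyrRS-m of the mitochondria, for asparagine, cysteine, phenylalanine and tyrosine. With the 4 that rose, these are 11 of 30 genes, all with a positive difference. At that p with a positive difference were 5.58% of all probe sets and 21.0% of bright ones, and all 11 genes but AsnRS-m were bright.

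PheRS-m had 8.76, 8.88 and 8.91 in Mhc7 and 7.69, 7.97 and 8.04 in Canton-S, a difference of 0.95 ± 0.11 (SE, n = 3 each; limma adjusted p = 0.00205). CysRS-m had 5.44, 5.67 and 5.69 in Mhc7 and 4.78, 4.57 and 4.77 in Canton-S, a difference of 0.89 ± 0.14 (SE, n = 3 each; limma adjusted p = 0.00569). Both sets of Mhc7 arrays were tight and clear of Canton-S. GlnRS had 6.45, 6.94 and 6.16 in Mhc7 and 5.58, 5.30 and 5.73 in Canton-S, a difference of 0.98 ± 0.19 (SE, n = 3 each; limma adjusted p = 0.0175). It lay just under the 2-fold limit and passed it in 4 of 9 fits that left out 1 array, reaching 1.16 without Mhc7 3.

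TyrRS had 6.60, 7.0 and 6.95 in Mhc7 and 5.97, 5.90 and 6.40 in Canton-S, and differed by 0.76 ± 0.18 (SE, n = 3 each; limma adjusted p = 0.0455). TyrRS-m had 6.75, 6.99 and 6.82 in Mhc7 and 6.32, 6.06 and 6.35 in Canton-S, and differed by 0.61 ± 0.17 (SE, n = 3 each; limma adjusted p = 0.0853). In both tyrosine genes the Mhc7 arrays were above all Canton-S arrays. TyrRS lies next to GluRS-m in gene order, and GluRS-m, the mitochondrial glutamate enzyme, differed by 0.08.

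All 3 Mhc7 arrays were above all 3 Canton-S arrays for 11 of 16 cytosolic genes and 6 of 14 mitochondrial genes, against 11.8% of all probe sets. No synthetase gene had all 3 Mhc7 arrays below Canton-S, against 10.3% of all probe sets. These shares were not counted among bright probe sets, which read higher in Mhc7 as a whole, and most of the synthetases were bright. The 95% confidence interval of the Mhc7 difference lay within 2-fold either way for 7 of 16 cytosolic and 11 of 14 mitochondrial genes. It reached beyond 2-fold higher for 9 cytosolic and 3 mitochondrial genes, among them the 4 that rose, and for the others a 2-fold rise was neither called nor set aside. AsnRS had such an interval, with 6.20, 5.30 and 5.92 in Mhc7, 4.55, 5.03 and 4.75 in Canton-S and a difference of 1.03 ± 0.47 (SE, n = 3 each; limma adjusted p = 0.321). Without Act88FKM88 3, whose AsnRS value was 7.07, the same difference had an adjusted p of 0.0497.

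**Figure D2:**
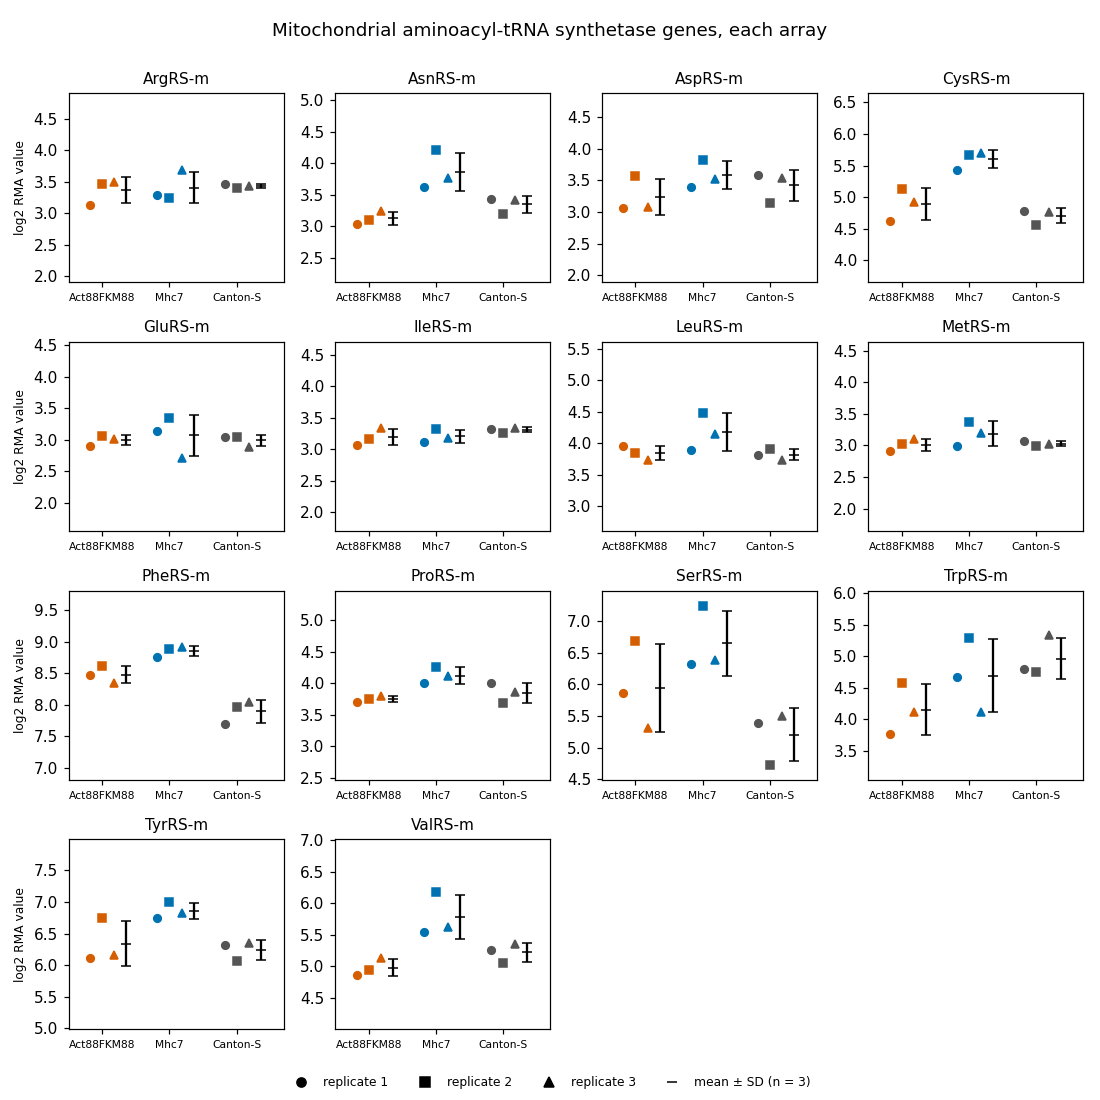
Log2 RMA value of the 14 mitochondrial synthetase genes in each array (y axis, 1 panel per gene), with Act88FKM88, Mhc7 and Canton-S side by side; points are arrays, shapes are replicate numbers, and bars are the mean ± SD of 3 arrays. PheRS-m, CysRS-m and SerRS-m are higher in all Mhc7 arrays than in all Canton-S arrays, and TrpRS-m is lower in all Act88FKM88 arrays than in all Canton-S arrays.

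In Act88FKM88 muscle, which lacks the flight muscle actin, 0 of 16 cytosolic and 0 of 14 mitochondrial genes passed against Canton-S by limma, beside 1.48% of all probe sets called higher and 0.33% called lower. Among bright probe sets 5.69% were called higher. At an unadjusted p under 0.05 there were 2 genes in each class, a limit at which the share of all probe sets was not counted. Cytosolic differences were positive for 12 of 16 genes, with a median of 0.12 (range -0.59 to 1.03). Mitochondrial differences were positive for 6 of 14 genes, with a median of -0.04 (range -0.81 to 0.74), against 42.7% positive and a median of -0.03 over all probe sets. Among bright genes the cytosolic median was 0.14 (14 genes) and the mitochondrial median 0.06 (8 genes), against 0.17 for all bright probe sets. After repeated quantile normalization 7 of these 14 cytosolic genes were positive, with a median of 0.02, against -0.03 for all bright probe sets. The 95% interval lay within 2-fold either way for 13 of 16 cytosolic and 12 of 14 mitochondrial genes.

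PheRS-m was the 1 gene of 30 with an adjusted p under 0.1 in Act88FKM88 against Canton-S. At that p with a positive difference were 3.94% of all probe sets and 14.4% of bright ones, so the count was not above either share. PheRS-m had 8.47, 8.61 and 8.35 in Act88FKM88 and 7.69, 7.97 and 8.04 in Canton-S. Every Act88FKM88 array was above every Canton-S array, with a difference of 0.58 ± 0.11 (SE, n = 3 each; limma adjusted p = 0.0281). PheRS-m is a single-chain enzyme in mitochondria, unlike its cytosolic counterpart, which is built of 2 kinds of subunit.

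All 3 Act88FKM88 arrays were above Canton-S for GluProRS, HisRS and PheRS-m and below it for TrpRS-m, which are 4 of 30 genes against 19.8% of all probe sets in either direction. GluProRS had 8.46, 8.23 and 9.49 in Act88FKM88 and 7.71, 7.28 and 8.09 in Canton-S, and differed by 1.03 ± 0.31 (SE, n = 3 each; limma adjusted p = 0.139). HisRS, the histidine enzyme, had 4.87, 4.72 and 5.42 in Act88FKM88 and 4.61, 4.54 and 4.31 in Canton-S, and differed by 0.52 ± 0.19 (SE, n = 3 each; limma adjusted p = 0.253). In both genes Act88FKM88 3 was the array farthest from Canton-S. Without Act88FKM88 2, the lowest array for GluProRS, that difference was 1.28 (adjusted p = 0.0943) and passed.

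TrpRS-m, the mitochondrial tryptophan enzyme, had 3.76, 4.58 and 4.12 in Act88FKM88 and 4.79, 4.75 and 5.34 in Canton-S. The difference of -0.81 ± 0.31 (SE, n = 3 each; limma adjusted p = 0.261) did not pass, and the highest Act88FKM88 array was close to the lowest Canton-S array. In Mhc7 the same gene had 4.67, 5.29 and 4.12, overlapping Canton-S. Its cytosolic counterpart TrpRS had 4.85, 5.13 and 4.60 in Act88FKM88 and 4.49, 4.29 and 4.77 in Canton-S.

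**Figure D3:**
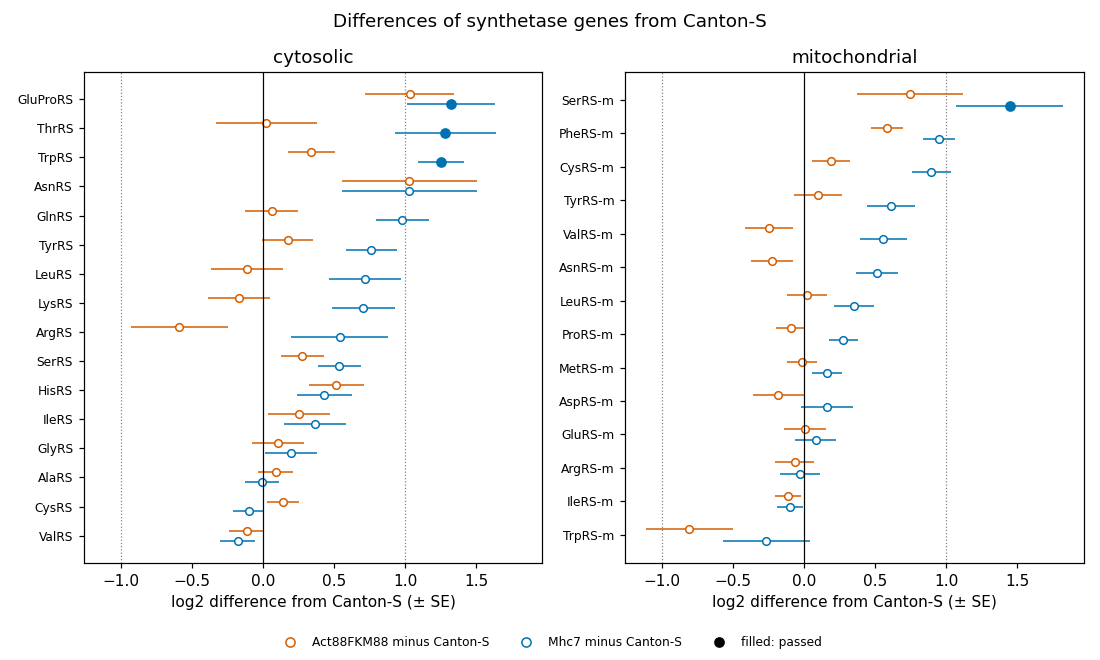
Log2 difference from Canton-S (x axis) of each cytosolic and mitochondrial synthetase gene (down the page, ordered by the Mhc7 difference), for Act88FKM88 (orange) and Mhc7 (blue), with bars of ± SE (n = 3 arrays each), dotted lines at 2-fold and filled circles for genes that passed. GluProRS, ThrRS, TrpRS and SerRS-m are filled for Mhc7, and no gene is filled for Act88FKM88.

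The mutants were also set against each other. None of the 16 cytosolic or 14 mitochondrial genes passed by limma in Act88FKM88 against Mhc7. Of all probe sets 1.03% were called lower and 0.757% higher. Of bright ones 2.83% were called higher, and the share called lower was not counted. At an unadjusted p under 0.05 there were 7 genes in each class, a limit at which the share of all probe sets was not counted. The difference was negative for 11 of 16 cytosolic genes, with a median of -0.28 (range -1.26 to 0.24), and for 14 of 14 mitochondrial genes, with a median of -0.37 (range -0.80 to -0.02). Over all probe sets 46.8% were positive, with a median of -0.01. All 3 Act88FKM88 arrays were below all 3 Mhc7 arrays for 7 cytosolic and 6 mitochondrial genes, against 10.1% of all probe sets. They were above them for 1 cytosolic gene, against 8.07%. These shares were not counted among bright probe sets alone. Without Act88FKM88 3 the cytosolic median was -0.65, and the range over all fits that left out 1 array was -0.65 to -0.12.

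An adjusted p under 0.1 with less than a 2-fold difference was found for 6 genes, all lower in Act88FKM88, against 2.28% of all probe sets. They were GlnRS, LysRS, the lysine enzyme, and TrpRS of the cytosol, and AsnRS-m, CysRS-m and ValRS-m of the mitochondria. All of these but AsnRS-m were bright, and the share of bright probe sets lower at that p was not counted. TrpRS had 4.85, 5.13 and 4.60 in Act88FKM88 and 5.65, 5.69 and 5.97 in Mhc7, and differed by -0.91 ± 0.16 (SE, n = 3 each; limma adjusted p = 0.0243). GlnRS had 5.55, 5.70 and 5.54 in Act88FKM88 and 6.45, 6.94 and 6.16 in Mhc7, and differed by -0.92 ± 0.19 (SE, n = 3 each; limma adjusted p = 0.0390). The 3 Act88FKM88 values of GlnRS lay within the range of Canton-S.

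ValRS-m, the mitochondrial valine enzyme, had 4.86, 4.94 and 5.13 in Act88FKM88 and 5.54, 6.18 and 5.61 in Mhc7, and differed by -0.80 ± 0.17 (SE, n = 3 each; limma adjusted p = 0.0434). AsnRS-m had 3.04, 3.11 and 3.24 in Act88FKM88 and 3.62, 4.21 and 3.77 in Mhc7, and differed by -0.73 ± 0.15 (SE, n = 3 each; limma adjusted p = 0.0379). For both, Mhc7 2 was the highest array and the mutants did not overlap. CysRS-m had 4.63, 5.12 and 4.93 in Act88FKM88 and 5.44, 5.67 and 5.69 in Mhc7, and differed by -0.71 ± 0.14 (SE, n = 3 each; limma adjusted p = 0.0315).

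ThrRS and ArgRS, the arginine enzyme, had the widest differences between the mutants. ThrRS had 5.46, 5.77 and 5.49 in Act88FKM88 and 5.97, 7.56 and 6.96 in Mhc7, a difference of -1.26 ± 0.35 (SE, n = 3 each; limma adjusted p = 0.129). ArgRS had 3.57, 4.69 and 3.81 in Act88FKM88 and 4.78, 5.78 and 4.90 in Mhc7, a difference of -1.13 ± 0.34 (SE, n = 3 each; limma adjusted p = 0.160). The mutants did not overlap for either gene, though Act88FKM88 2 came close to Mhc7 1 for ArgRS. After repeated quantile normalization both passed, ThrRS at -1.15 (adjusted p = 0.0661) and ArgRS at -1.12 (adjusted p = 0.0727).

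Arrays of 1 genotype also differed over the synthetases as a group. The mean over the 16 cytosolic genes was 4.96, 5.16 and 5.41 in Act88FKM88, 5.48, 5.78 and 5.55 in Mhc7, and 4.97, 4.86 and 5.12 in Canton-S. The mean over the 14 mitochondrial genes was 4.25, 4.55 and 4.34 in Act88FKM88, 4.64, 5.02 and 4.71 in Mhc7, and 4.43, 4.27 and 4.47 in Canton-S. In both classes the 3 Mhc7 arrays were above the other 6.

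Mhc7 2 was the highest Mhc7 array for 11 of 16 cytosolic and 11 of 14 mitochondrial genes, against 50% of bright probe sets and 33.9% of all probe sets. It also had the highest 95th percentile, 8.15, and the highest mean of fat body markers, 7.53, and the part of either in these differences was not tested. Act88FKM88 3 was the highest array of its genotype for 11 of 16 cytosolic genes and 6 of 14 mitochondrial genes, against 25.5% of bright probe sets and 41.2% of all probe sets, so the mitochondrial count was near the share of all probe sets. This array had the lowest 95th percentile of its genotype, 7.57, and the lowest signal of all arrays at the 18S rRNA control probe set, 6.42 against 8.59 to 10.02 in the other 8. Canton-S 2 was the lowest Canton-S array for 10 of 16 cytosolic and 11 of 14 mitochondrial genes, against 39.9% of bright probe sets and 39.1% of all probe sets.

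Among genes of the symbol pattern, 11 pairs had a measured enzyme for an amino acid in each compartment, counting GluProRS against both GluRS-m and ProRS-m. Phenylalanine is not among these pairs, because its cytosolic subunit genes, alpha-PheRS and beta-PheRS, fall outside the pattern. Those differed by 0.15 and 0.35 in Mhc7 against Canton-S, and PheRS-m by 0.95. In Mhc7 against Canton-S the cytosolic difference was the larger in 8 pairs and the mitochondrial one in 3, with medians of 0.35 over the mitochondrial and 0.72 over the cytosolic partners. The 3 with the larger mitochondrial difference were those for cysteine, serine and valine. CysRS-m differed by 0.89 and CysRS by -0.10, SerRS-m by 1.44 and SerRS by 0.54, and ValRS-m by 0.56 and ValRS by -0.18. In 6 of the 11 pairs 1 partner was dim, and in each of these the dim gene had the smaller difference. Those were ArgRS-m, AsnRS-m, GluRS-m, IleRS-m, CysRS and ValRS. In the 5 pairs with both partners bright, for leucine, proline, serine, tryptophan and tyrosine, the cytosolic difference was the larger in 4. After repeated quantile normalization the Mhc7 medians over all 11 pairs were 0.26 for the mitochondrial and 0.38 for the cytosolic partners. After cyclic loess they were 0.29 and 0.45. No test was made of the difference between partners. The part of brightness in these gaps was not tested.

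SerRS had 5.15, 5.11 and 5.62 in Act88FKM88, 5.66, 5.66 and 5.35 in Mhc7, and 5.03, 4.87 and 5.15 in Canton-S. SerRS-m in Act88FKM88 had 5.86, 6.69 and 5.30, a spread wide enough to overlap both other genotypes. SerRS was higher in every Mhc7 array than in every Canton-S array. ValRS had 3.54, 3.66 and 3.81 in Act88FKM88, 3.61, 3.81 and 3.40 in Mhc7, and 3.73, 3.93 and 3.70 in Canton-S, while ValRS-m in Canton-S had 5.26, 5.05 and 5.35. CysRS had 2.97, 3.22 and 3.36 in Act88FKM88, 2.96, 2.95 and 2.91 in Mhc7, and 2.91, 3.08 and 3.14 in Canton-S, near the array median throughout.

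In the pairs with the larger cytosolic difference, the widest gap was for tryptophan, where TrpRS-m differed by -0.26 and TrpRS by 1.25 in Mhc7 against Canton-S. For glutamate and proline, GluRS-m differed by 0.08 and ProRS-m by 0.28, against 1.32 for GluProRS. GluRS-m had 2.90, 3.06 and 3.01 in Act88FKM88, 3.14, 3.35 and 2.72 in Mhc7, and 3.04, 3.04 and 2.89 in Canton-S. ProRS-m had 3.70, 3.76 and 3.79 in Act88FKM88, 4.0, 4.25 and 4.11 in Mhc7, and 4.0, 3.68 and 3.85 in Canton-S, so Mhc7 and Canton-S met at 4.0.

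For arginine, ArgRS-m differed by -0.03 and ArgRS by 0.54 in Mhc7 against Canton-S. ArgRS-m had 3.13, 3.47 and 3.50 in Act88FKM88, 3.28, 3.24 and 3.69 in Mhc7, and 3.46, 3.40 and 3.43 in Canton-S. ArgRS in Canton-S had 4.23, 4.68 and 4.92, which overlapped both mutants. For isoleucine, IleRS-m differed by -0.10 and IleRS by 0.36, and for leucine, LeuRS-m differed by 0.35 and LeuRS by 0.72.

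IleRS had 6.08, 6.26 and 7.08 in Act88FKM88, 6.48, 6.66 and 6.61 in Mhc7, and 6.24, 6.15 and 6.27 in Canton-S, with Act88FKM88 3 again above the rest. IleRS-m had 3.08, 3.17 and 3.33 in Act88FKM88, 3.12, 3.32 and 3.18 in Mhc7, and 3.32, 3.26 and 3.33 in Canton-S. LeuRS had 4.16, 4.59 and 5.20 in Act88FKM88, 5.42, 5.78 and 5.25 in Mhc7, and 4.90, 4.47 and 4.91 in Canton-S. For LeuRS the 3 Mhc7 arrays were the 3 highest of the 9. LeuRS-m had 3.96, 3.84 and 3.74 in Act88FKM88, 3.90, 4.49 and 4.14 in Mhc7, and 3.82, 3.90 and 3.74 in Canton-S.

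For asparagine, AsnRS-m differed by 0.51 ± 0.15 (SE, n = 3 each; limma adjusted p = 0.0999) in Mhc7 against Canton-S and AsnRS by 1.03. AsnRS-m in Canton-S had 3.44, 3.20 and 3.43. For tyrosine the gap between partners was the smallest of the 11, with 0.61 for TyrRS-m and 0.76 for TyrRS. In Act88FKM88, TyrRS had 5.97, 6.34 and 6.48, and TyrRS-m had 6.12, 6.75 and 6.16, both overlapping Canton-S.

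In Act88FKM88 against Canton-S the cytosolic difference was the larger in 7 of the 11 pairs and the mitochondrial one in 4, with medians of -0.07 over the mitochondrial and 0.25 over the cytosolic partners. In Act88FKM88 against Mhc7 the signed cytosolic difference was the larger in 5 pairs and the mitochondrial one in 6, and the medians were -0.51 over the mitochondrial and -0.29 over the cytosolic partners. After repeated quantile normalization these medians were -0.39 and 0.002, and the mitochondrial difference was the larger in 4 pairs. After cyclic loess the medians were -0.39 and -0.10.

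The cytosolic enzymes were next split by whether the mammalian counterpart is a member of the multisynthetase complex. The 6 measured here were ArgRS, GluProRS, GlnRS, IleRS, LeuRS and LysRS. In Mhc7 against Canton-S 1 rose (GluProRS), and 6 of 6 had a positive difference, with a median of 0.71 (range 0.36 to 1.32). In that comparison 2.4% of all probe sets and 9.57% of bright ones were called higher, and all 6 complex members were bright. After repeated quantile normalization 5 of the 6 were positive, with a median of 0.45. LysRS had 5.93, 6.51 and 5.70 in Act88FKM88, 6.65, 7.25 and 6.87 in Mhc7, and 6.22, 6.02 and 6.40 in Canton-S, with all Mhc7 arrays above the other 6. Of the 10 cytosolic genes outside the complex, 2 rose in Mhc7 (ThrRS and TrpRS), 7 were positive, and the median was 0.49, which was 0.31 after repeated quantile normalization. In Act88FKM88 against Mhc7 the 6 complex members had a median of -0.85 (range -1.13 to -0.11), and the 10 others had a median of -0.04. After repeated quantile normalization these medians were -0.79 and -0.02, and 2 of the 6 complex members were positive. After cyclic loess 1 of the 6 was positive. No test was made of the difference between these groups, and the dimmer CysRS and ValRS were both outside the complex.

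Scaffold and partner genes outside the symbol pattern were also measured, 8 of the 9 listed. In Mhc7 against Canton-S 1 rose, 0 fell and 8 of 8 were positive, with a median of 0.50. In that comparison 2.4% of all probe sets and 9.57% of bright ones were called higher. After both repeated quantile normalization and cyclic loess 7 of 8 were positive, with a median of 0.23. The gene that rose was GatB, a subunit of the amidotransferase that makes glutamine tRNA in mitochondria. It had 4.83, 5.39 and 5.53 in Mhc7 and 4.01, 3.52 and 4.69 in Canton-S, and differed by 1.18 ± 0.27 (SE, n = 3 each; limma adjusted p = 0.0434). That call was lost without Mhc7 2, Mhc7 3, Canton-S 1 or Canton-S 2 (highest adjusted p 0.164).

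AIMP1, a scaffold of the complex, fell in Act88FKM88 against Mhc7, with 6.08, 6.46 and 6.24 in Act88FKM88 and 7.05, 7.67 and 7.42 in Mhc7. The difference was -1.12 ± 0.19 (SE, n = 3 each; limma adjusted p = 0.0180), and it was under 2-fold without Mhc7 2 and after repeated quantile normalization (-0.96). In Mhc7 against Canton-S, where AIMP1 had 6.43, 6.45 and 6.91, it differed by 0.78 ± 0.19 (SE, n = 3 each; limma adjusted p = 0.0487). In Act88FKM88 against Canton-S no partner gene passed by limma, and the median was 0.05 (-0.13 after repeated quantile normalization), with 0 of 8 at an unadjusted p under 0.05. The smallest p values there were those of GatA (adjusted p = 0.442) and AIMP1 (adjusted p = 0.472).

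Other genes of translation were counted in the same way. In Mhc7 against Canton-S 2.4% of all probe sets and 9.57% of bright ones were called higher. In Act88FKM88 against Canton-S these shares were 1.48% and 5.69%. Of 9 measured mitochondrial translation factors, 3 rose in Mhc7 against Canton-S, with a median of 0.86, which was 0.49 after repeated quantile normalization and 0.50 after cyclic loess. The release factor gene mRF1 had 6.73, 7.77 and 7.12 in Mhc7 and 4.31, 3.38 and 4.62 in Canton-S, and differed by 3.10 ± 0.34 (SE, n = 3 each; limma adjusted p = 0.00158). The recycling factor gene mRRF1 differed by 1.51 ± 0.20 (SE, n = 3 each; limma adjusted p = 0.00321). In Act88FKM88 against Canton-S 1 of the 9 rose, mRRF1 again, by 1.24 ± 0.20 (SE, n = 3 each; limma adjusted p = 0.0143), and the median was -0.01, which was -0.40 after repeated quantile normalization.

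Act88FKM88 against Mhc7 had 2 of these 9 factors lower, mRF1 by -2.95 ± 0.34 (SE, n = 3 each; limma adjusted p = 0.00332) and the elongation factor gene mEFTs by -1.12 ± 0.29 (SE, n = 3 each; limma adjusted p = 0.0972). The mEFTs call held in 2 of 9 fits that left out 1 array. Of 69 mitochondrial ribosomal protein genes, 50 rose in Mhc7 against Canton-S, with a median of 1.42, beside medians of 0.31 over the 14 mitochondrial synthetases and 0.58 over the 8 bright ones. After repeated quantile normalization 11 of them passed, with a median of 0.72, and after cyclic loess 23, with a median of 0.82, beside 0.29 and 0.34 for the bright mitochondrial synthetases. In Act88FKM88 against Canton-S 7 of the 69 rose, with a median of 0.43, which was close to 0 after repeated quantile normalization with 3 lower and 0 higher, and in Act88FKM88 against Mhc7 29 fell, with a median of -1.0, and after repeated quantile normalization 16 passed, with a median of -0.74.

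Of 32 measured cytosolic ribosomal protein genes none passed by limma in any of the 3 comparisons, with medians of 0.43 in Act88FKM88 against Canton-S, 0.38 in Mhc7 against Canton-S and 0.08 in Act88FKM88 against Mhc7. At an unadjusted p under 0.05 there were 21, 15 and 0 of them, with no share of all probe sets counted at that limit. The 2 with the smallest p were RpL34a and RpLP0 in Act88FKM88 against Canton-S, with differences of 0.73 and 0.69, and RpL27 and RpLP0 in Mhc7 against Canton-S, with 0.70 and 0.75. The Act88FKM88 median against Canton-S was 0.10 after repeated quantile normalization and 0.08 after cyclic loess. The Mhc7 median against Canton-S was -0.05 after repeated quantile normalization and -0.08 after cyclic loess, so its direction turned with the scaling. Of 4 measured cytosolic elongation factors 1 rose in Mhc7, eEF5, which carries the hypusine modification, by 1.12 ± 0.22 (SE, n = 3 each; limma adjusted p = 0.0182). It was 0.58 after repeated quantile normalization, 0.63 after cyclic loess and 0.86 without Canton-S 1, and so no longer passed. None of the 4 passed in Act88FKM88 against Canton-S, where 2 had an unadjusted p under 0.05. There eEF1alpha2, which encodes a form of the factor that brings charged tRNA to the ribosome, differed by 0.55 ± 0.13 (SE, n = 3 each; limma adjusted p = 0.0592). None passed in Act88FKM88 against Mhc7, where 0 had an unadjusted p under 0.05 and eEF1delta differed by -0.40.

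Of 14 measured tRNA maturation genes, 1 rose in Mhc7 against Canton-S and 1 fell in Act88FKM88 against Mhc7, and both calls were of rswl, a subunit of the mitochondrial RNase P that trims tRNA ends. It had 4.72, 5.02 and 4.67 in Act88FKM88, 5.62, 6.28 and 6.05 in Mhc7, and 4.65, 4.86 and 5.0 in Canton-S. All Mhc7 arrays were above the other 6, and the difference of Mhc7 from Canton-S was 1.14 ± 0.17 (SE, n = 3 each; limma adjusted p = 0.00582). That call was lost without Mhc7 2 and after repeated quantile normalization (0.91). The median of the 14 genes was 0.06. In Act88FKM88 against Canton-S none of the 14 passed by limma and 1 had an unadjusted p under 0.05, scu, another subunit of that RNase P, with a difference of -0.45 ± 0.16 (SE, n = 3 each; limma adjusted p = 0.229).

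In mammals, shortage of an amino acid or stress in mitochondria raises many cytosolic synthetases through the transcription factor ATF4, whose fly homologue is crc. Of 9 measured genes of this response, 1 rose in Act88FKM88 against Canton-S and 2 in Mhc7 against Canton-S, with medians of 0.71 and 0.53. Of all probe sets 1.48% and 2.4% were called higher in these comparisons, and of bright ones 5.69% and 9.57%. The calls of those 3 genes, PEK, Sesn and AsnS, were all lost after repeated quantile normalization, where the medians were 0.30 and 0.20. In Act88FKM88 against Mhc7 the 1 gene that rose was aay, a phosphatase of serine synthesis, by 1.59 ± 0.28 (SE, n = 3 each; limma adjusted p = 0.0226). PEK, a kinase that acts on translation initiation, rose by 1.70 ± 0.44 in Act88FKM88 (SE, n = 3 each; limma adjusted p = 0.0863). That call held in 3 of 9 fits that left out 1 array, and the highest adjusted p was 0.255. Sesn, a sestrin, rose by 1.60 ± 0.33 in Mhc7 (SE, n = 3 each; limma adjusted p = 0.0237), and repeated quantile normalization brought it to 1.13 (adjusted p = 0.220).

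AsnS, the asparagine synthetase gene, had 6.54, 5.34 and 7.74 in Act88FKM88, 7.41, 5.60 and 7.72 in Mhc7, and 4.02, 4.95 and 4.13 in Canton-S. It rose by 2.54 ± 0.67 in Mhc7 (SE, n = 3 each; limma adjusted p = 0.0720) and differed by 2.17 ± 0.67 in Act88FKM88 (SE, n = 3 each; limma adjusted p = 0.147). The Mhc7 call held in 3 of 9 fits that left out 1 array, with a highest adjusted p of 0.232, and did not hold after repeated quantile normalization (adjusted p = 0.156). The gene crc itself had 10.67, 10.88 and 10.59 in Act88FKM88, 10.42, 10.55 and 10.62 in Mhc7, and 9.76, 10.15 and 10.10 in Canton-S. It differed by 0.71 ± 0.12 in Act88FKM88 (SE, n = 3 each; limma adjusted p = 0.0192) and by 0.53 ± 0.12 in Mhc7 (SE, n = 3 each; limma adjusted p = 0.0466), both under 2-fold.

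AsnRS, which uses the product of AsnS, had 5.41, 4.95 and 7.07 in Act88FKM88, 6.20, 5.30 and 5.92 in Mhc7, and 4.55, 5.03 and 4.75 in Canton-S. In both mutants replicate 2 was the lowest array for AsnRS and for AsnS, and in Canton-S replicate 2 was the highest for both. GluProRS shared the high value of Act88FKM88 3 and the low value of Act88FKM88 2, but not the order of the Canton-S arrays. In Mhc7 the highest array was Mhc7 1 for AsnRS and Mhc7 3 for AsnS. Sesn also had its lowest mutant values in replicate 2 (6.45 in Act88FKM88 and 7.42 in Mhc7). Its highest Canton-S value was there too (6.57), while the lowest Act88FKM88 value of PEK was in replicate 3 (6.07). The replicate 2 pattern was thus not particular to AsnRS and AsnS, and the number of arrays per genotype is too small for a correlation within one.

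**Figure D4:**
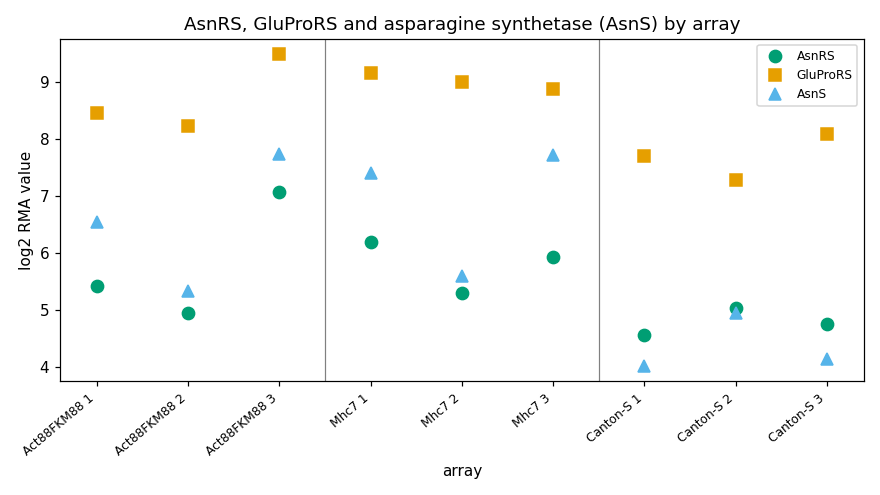
Log2 RMA values of AsnRS, GluProRS and AsnS (y axis) in each of the 9 arrays (x axis), with vertical lines between genotypes. AsnRS and AsnS are lowest in replicate 2 of both mutants and highest in replicate 2 of Canton-S; heights of different genes cannot be compared.

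**Figure D5:**
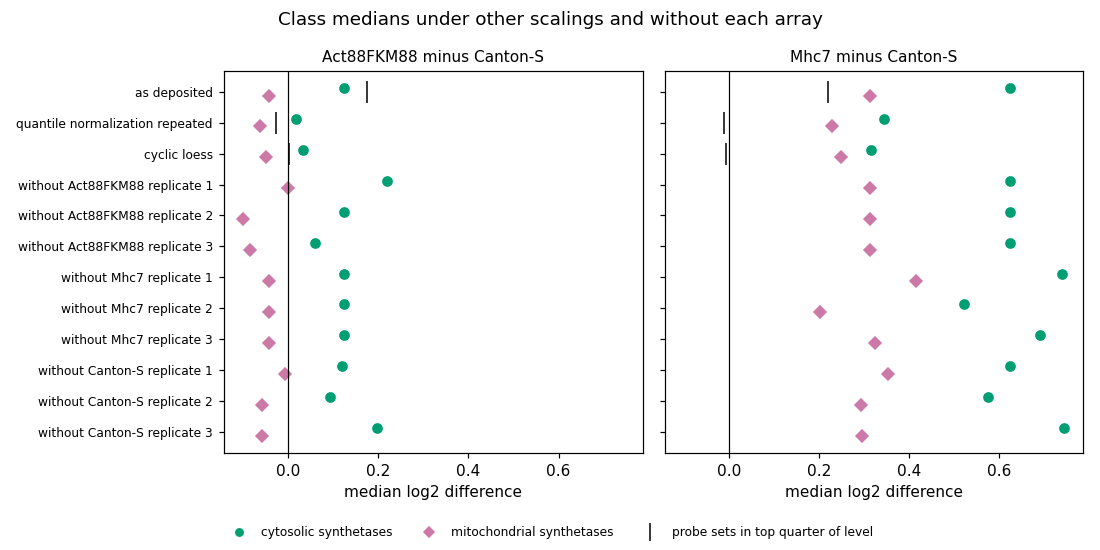
Median log2 difference over the 16 cytosolic (circles) and 14 mitochondrial (diamonds) synthetase genes (x axis) in each mutant against Canton-S (1 panel each), with the deposited values, after 2 other normalizations and without each array in turn (down the page). Vertical ticks give the median of all bright probe sets (at or above the 75th percentile of level). In Mhc7 against Canton-S the cytosolic median is 0.62 with the deposited values, 0.34 after quantile normalization and 0.32 after cyclic loess, above 0 in each.

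The height of the Mhc7 medians depended on the scale of the arrays. Repeated quantile normalization gave cytosolic medians of 0.34 in Mhc7 against Canton-S, with 12 of 16 genes positive, and cyclic loess gave 0.32, with 13 of 16 positive. The median over all bright probe sets was then -0.01 in both. Over bright synthetases alone the Mhc7 medians after repeated quantile normalization were 0.37 for cytosolic and 0.29 for mitochondrial genes. After cyclic loess they were 0.38 and 0.34, so the gap between the classes was smaller than with the deposited values. TrpRS stayed past the threshold under both scalings, at 1.07 (adjusted p = 0.00466) and 1.08 (adjusted p = 0.00420), and in 9 of 9 fits that left out 1 array, with a highest adjusted p of 0.0190.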

How the data were processed

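Per the labels, total RNA of flight muscle was labelled with biotin and hybridized to 9 Affymetrix Drosophila Genome 2.0 arrays. The authors deposited 1 log2 value per probe set and array, made by RMA, per the series' design text and the submitters' processing notes. The RMA version, and whether the 9 arrays were normalized together, are not given in the sources used here. Of 18952 probe sets, 183 Affymetrix controls were left out, and 18769 were tested with no filter on level.

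Genotype means were estimated in a linear model of the 9 arrays together (limma 3.58.1, R 4.3.3), and p-values were adjusted by Benjamini-Hochberg over all 18769 probe sets. The fit was tested on simulated data. Where a gene had several probe sets, the one with the highest average level was used. Values in full are given for members that passed in any comparison and for amino acids with both enzymes among the members. Each further list gives up to 2 genes called per direction, otherwise those ranking first and second by p. The members, the lists and these rules were chosen with earlier results of these data known. With arrays there is no sequencing depth, and precision is limited by 3 arrays per genotype. Alternatives were repeated quantile normalization, cyclic loess, a filter on level, other thresholds, fits on 6 arrays, array weights, an intensity-dependent variance prior, averaged probe sets, leaving out each array, and the replicate number as a block. Medians of roles, pairs and further lists under the other normalizations were added after the values were seen.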

Additional observations from a re-analysis of the deposited data

How the results depend on the processing

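Apart from fits that left out 1 array, in 107 of 129 comparisons of a count or median with an alternative setting the count stayed within 1.5 times or the median moved by less than the spread between arrays, and no class median changed sign. Counts of genes called were less stable than medians. For cytosolic genes 10 of these counts moved and 20 stayed, and for mitochondrial genes 5 moved and 25 stayed. Some settings, such as fits on 6 arrays and the filter on level, leave the differences themselves unchanged. Among fits that left out 1 array, the mitochondrial median in Act88FKM88 against Canton-S, -0.04 with all arrays, turned sign to 0.000839 without Act88FKM88 1. Repeated quantile normalization and cyclic loess left 266 (144 higher, 122 lower) and 278 (158 higher, 120 lower) probe sets called in Mhc7 against Canton-S, against 451 higher and 73 lower with the deposited values. Cytosolic genes called in Mhc7 were then 1 and 1 (TrpRS), with medians of 0.34 and 0.32, and mitochondrial genes called were 0 after cyclic loess and also 0 at an adjusted p under 0.05. Between the mutants, 2 cytosolic genes (ArgRS and ThrRS) passed after quantile normalization and 2 after cyclic loess, 2 with a variance prior that follows intensity and 1 (ThrRS) after removal of dim probe sets (under the 40th percentile). With no fold limit, Act88FKM88 against Canton-S had 953 probe sets and 1 mitochondrial gene, Mhc7 against Canton-S 1334 probe sets, 6 cytosolic and 5 mitochondrial genes, and Act88FKM88 against Mhc7 740 probe sets, 3 cytosolic and 3 mitochondrial genes.

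Leaving out 1 array gave 218 to 390 probe sets called in Act88FKM88 against Canton-S (218 without Canton-S 1) and 192 to 400 in Act88FKM88 against Mhc7 (192 without Act88FKM88 1). Cytosolic genes called ranged over 0 to 1, 1 to 3 (Mhc7 against Canton-S) and 0 to 3 (Act88FKM88 against Mhc7), and mitochondrial genes called in Mhc7 against Canton-S over 0 to 2. The cytosolic median between the mutants ranged from -0.65 to -0.12. Where an array was left out, its genotype had 2 arrays, taken to vary like the others.

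Whether replicate numbers pair the arrays could not be decided from these values. Same-numbered deviations correlated at -0.01, -0.01 and 0.16 between Act88FKM88 and Canton-S, -0.09, -0.32 and 0.07 between Mhc7 and Canton-S, and 0.14, 0.43 and 0.03 between Act88FKM88 and Mhc7. The best match had the same number for replicate 3 in each comparison with Canton-S and for replicates 1 and 2 between the mutants, and another number otherwise. With the replicate number as a block, 1 cytosolic gene (GluProRS) passed in Act88FKM88 against Canton-S and 1 (ArgRS) in Act88FKM88 against Mhc7. The cause of these shifts was not tested. No array-wide level scale was measured independently of the deposited normalization, so small differences of bright genes are limited by it.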

Other observations

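Synthetases fall into catalytic classes I and II by the fold of the active site. In Mhc7 against Canton-S, 1 of 17 class I genes rose (TrpRS), with a median difference of 0.36 (range -0.26 to 1.25), and 2 of 12 class II genes rose (ThrRS and SerRS-m), with a median of 0.52 (range -0.01 to 1.44). GluProRS joins a class I and a class II enzyme in a single protein and was counted in neither. In Mhc7 against Canton-S 2.4% of all probe sets and 9.57% of bright ones were called higher. In Act88FKM88 against Canton-S the medians were 0.01 for class I and 0.10 for class II. After repeated quantile normalization the Mhc7 medians were 0.20 for class I and 0.29 for class II, and the class I median in Act88FKM88 was -0.08. The difference between the classes was not tested.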
